A study of Mus musculus with 2 samples.

Results

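Exon transcripts are the segments of nascent RNA that were called over the exons of known genes. They were taken from the deposited lists of called transcripts by one rule: the annotation names an exon, and the detailed annotation names no repeat element. The rule found 3520 exon transcripts among 43122 called transcripts in the control library, and 4282 among 51365 in the IL-4 library. No exon row carried a repeat, so the second condition removed 0 rows in either library. Segments at start sites, in untranslated regions and in introns have classes of their own and are not included.

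The nascent RNA came from mouse bone marrow-derived macrophages (BMDMs) and was profiled with GRO-seq (global run-on sequencing), which labels the RNA that engaged polymerases extend in isolated nuclei. The marrow was of wild-type mice aged 8 to 12 weeks, and both cultures were differentiated for 6 days in L929 supernatant as a source of M-CSF, the macrophage growth factor. The control received no further cytokine, and the other culture received 20 ng/ml interleukin-4 (IL-4) for 1 hr. Duplicate run-on reactions were pooled and about 100 ng of RNA went into each library, which left 1 library per condition (n = 1). No spread between cultures can therefore be given, no test between conditions was possible, and every interval below covers counting error or rounding only. Of 8 macrophage markers (such as Csf1r, Cd68 and Mertk), 6 had a called transcript by name in both libraries, whereas 0 of 4 fibroblast markers and 0 or 1 of 4 erythroid markers had one. For neutrophil markers this was 2 of 5 in each library, and for B cells and T cells 1 of 4.

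RNA polymerase II copies a gene from its start site through exons and introns alike, and splicing removes the introns from the RNA while it is made or afterwards. Run-on signal in an exon is therefore meant to report polymerase moving across it and not mature mRNA. Whether mature mRNA was carried over into these libraries was not tested. Polymerase density is known to be highest just past the start site, where the enzyme pauses, and to be lower and more even in the gene body. IL-4 acts on macrophages through the transcription factor STAT6, and its best known target genes include the mannose receptor Mrc1.

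The exons below are internal exons among the largest differences between the libraries, and they are printed to show how much of an exon such a segment covers. They are read 5′ to 3′ on the strand of the gene from GENCODE M21 transcripts (GRCm38, the same build as mm10). Capitals mark the bases covered by the called segments of both libraries, and only coding bases are printed. Mrc1 exon 8 of 30 lies at chr2:14270139-14270296 on the plus strand, Dab2 exon 10 of 13 is shown from chr15:6435291-6435590 on the plus strand, Stab1 exon 23 of 69 lies at chr14:31154829-31155015 on the minus strand, and Slc6a6 exon 7 of 15 lies at chr6:91739877-91740011 on the plus strand. Inpp5d exon 12 of 27 lies at chr1:87697349-87697545 on the plus strand.
Mrc1 exon 8: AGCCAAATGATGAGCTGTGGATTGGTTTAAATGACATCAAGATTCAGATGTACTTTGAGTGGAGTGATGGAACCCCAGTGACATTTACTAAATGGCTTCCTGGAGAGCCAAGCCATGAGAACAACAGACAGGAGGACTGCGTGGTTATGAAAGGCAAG
Dab2 exon 10: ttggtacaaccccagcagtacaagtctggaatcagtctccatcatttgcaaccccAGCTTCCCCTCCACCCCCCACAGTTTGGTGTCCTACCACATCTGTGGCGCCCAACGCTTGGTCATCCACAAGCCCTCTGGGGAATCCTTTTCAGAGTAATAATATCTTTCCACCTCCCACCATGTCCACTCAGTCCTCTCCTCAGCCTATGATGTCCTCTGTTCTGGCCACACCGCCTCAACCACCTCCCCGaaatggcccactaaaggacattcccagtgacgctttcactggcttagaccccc
Stab1 exon 23: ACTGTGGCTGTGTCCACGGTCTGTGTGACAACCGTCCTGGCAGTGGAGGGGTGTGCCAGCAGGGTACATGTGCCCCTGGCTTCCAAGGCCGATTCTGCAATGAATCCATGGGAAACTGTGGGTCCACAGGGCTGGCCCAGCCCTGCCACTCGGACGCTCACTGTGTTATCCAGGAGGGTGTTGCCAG
Slc6a6 exon 7: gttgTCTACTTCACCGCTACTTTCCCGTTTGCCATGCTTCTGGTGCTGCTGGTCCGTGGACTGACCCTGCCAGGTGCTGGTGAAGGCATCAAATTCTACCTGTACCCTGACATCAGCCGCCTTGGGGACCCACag
Inpp5d exon 12: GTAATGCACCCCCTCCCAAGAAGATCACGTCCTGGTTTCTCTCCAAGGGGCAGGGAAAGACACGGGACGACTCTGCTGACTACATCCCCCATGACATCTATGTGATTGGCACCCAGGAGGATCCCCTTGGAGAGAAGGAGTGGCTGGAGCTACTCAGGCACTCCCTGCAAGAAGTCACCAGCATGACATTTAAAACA
In Mrc1 exon 8, Stab1 exon 23 and Inpp5d exon 12 every base was covered in both libraries, since the segments ran past both ends of the exon. The shared part was 192 of 636 bases in Dab2 exon 10 and 129 of 135 bases in Slc6a6 exon 7.

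First exons and internal exons also differed in base composition. The first 120 coding bases of exon 1 of Clta (clathrin light chain A) and 120 coding bases of exon 11 of Psap (the lysosomal precursor prosaposin) are shown with each CG in capitals, because these were the highest scoring first and internal exons that held a top score in control with their own gene's promoter as the nearest one. They lie at chr4:44012792-44012911 and chr10:60300148-60300267, both on the plus strand.
Clta exon 1: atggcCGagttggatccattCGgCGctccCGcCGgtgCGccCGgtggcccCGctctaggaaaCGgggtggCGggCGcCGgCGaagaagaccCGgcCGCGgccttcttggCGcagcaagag
Psap exon 11: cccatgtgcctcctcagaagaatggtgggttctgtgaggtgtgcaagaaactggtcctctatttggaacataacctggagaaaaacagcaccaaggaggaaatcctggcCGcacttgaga
The Clta stretch held 17 CG and 72.5% G or C, against 1 CG and 50% in Psap. Over all coding exons with an exon transcript after IL-4, the median G and C content was 68.9% in first exons (n = 1058), 54.8% in internal exons (n = 2503) and 50.4% in last exons (n = 385). In the same host transcripts, exons without an exon transcript in either library had medians of 66.3% (first, n = 964), 51.2% (internal, n = 35324) and 47.3% (last, n = 2710). Internal exons that held an exon transcript were also longer, with medians of 184 bp (control) and 186 bp (IL-4) against 120 bp for those without one. A longer exon can more easily hold a segment's midpoint, and the part of exon length in the difference in composition was not tested.

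The first comparison asked how much of the called transcription lay in exons, and whether that share differed after IL-4. Exon transcripts made up 8.16% of all called transcripts in control (95% Wilson interval 7.91 to 8.43%) and 8.34% after IL-4 (8.10 to 8.58%). The intervals overlapped. The number was higher by 762 after IL-4, 1.22 times the control number, and all called transcripts were 1.19 times as many. Together the exon transcripts covered 1.66 Mb of sequence after IL-4, where control had 1.00 Mb.

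Most exon transcripts lay in internal exons. These held 2083 in control (59.2%, 57.5 to 60.8%) and 2651 after IL-4 (61.9%, 60.4 to 63.4%). First exons of genes with several exons held 961 (27.3%, 25.9 to 28.8%) and 1095 (25.6%, 24.3 to 26.9%). Last exons held 407 (11.6%) and 453 (10.6%), and genes of a single exon held 69 (1.96%) and 83 (1.94%). Every class had more members after IL-4, while the shares of the 4 classes differed by less than 3 percentage points.

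**Figure D1:**
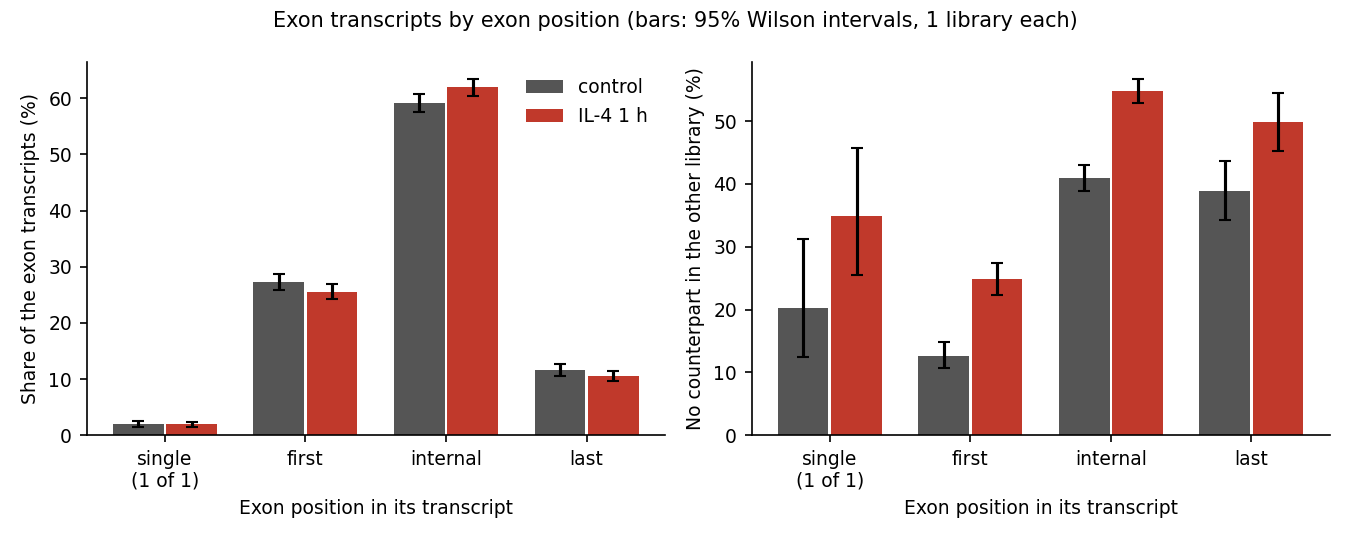
Left, share of the exon transcripts (%) in single, first, internal and last exons in the control (grey) and IL-4 (red) libraries, with 95% Wilson intervals. Right, share of the members of each class that overlapped no called transcript of the other library on the same strand. Internal exons held 59.2% and 61.9% of the members, and first exons had the lowest shares without a counterpart, 12.6% in control and 24.8% after IL-4.

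These shares depend on how much sequence each kind of exon offers and on the order in which the annotation assigns classes. Midpoints of called transcripts were therefore also counted per Mb on the gene's own strand over 8626 protein-coding genes, without use of the deposited annotation. Only genes with at least 1 such midpoint in either library were kept, so they were chosen by what was counted. Repeats were not left out of the intron sequence, and their part in the densities was not tested. Internal exons held 176 midpoints per Mb in control (exact Poisson interval 168 to 183) and 225 after IL-4 (217 to 234). Introns after the first held 61.7 (60.7 to 62.6) and 74.1 (73.1 to 75.1). The density in internal exons was thus 2.85 times that of later introns in control and 3.04 times after IL-4. First exons, which here include start sites and 5′ untranslated parts, were densest, with 1289 per Mb in control (1244 to 1334) and 1335 after IL-4 (1289 to 1381). That was 7.33 and 5.93 times the density in internal exons. Last exons held 139 and 170 per Mb.

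**Figure D2:**
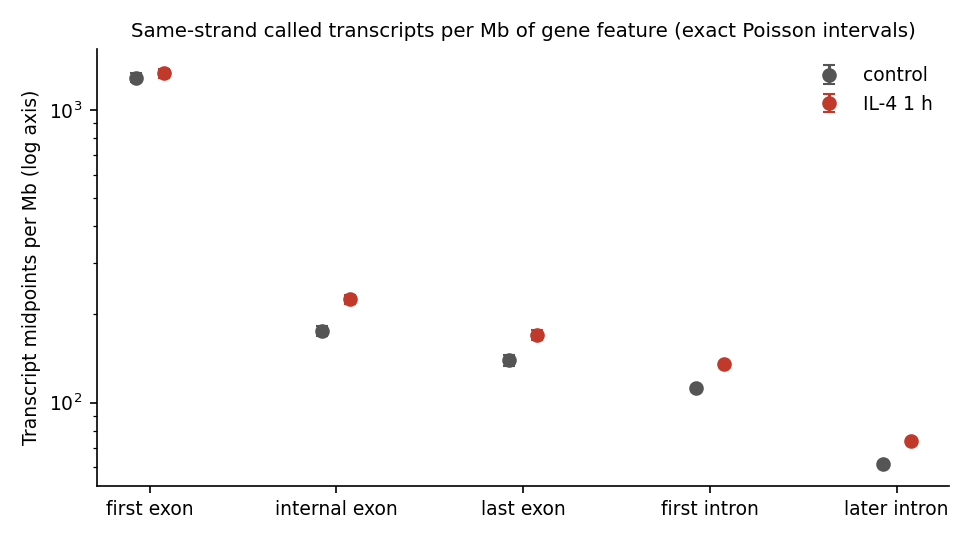
Midpoints of called transcripts per Mb (log axis) on the strand of the gene in first, internal and last exons and in first and later introns. The 8626 protein-coding genes are those with at least 1 such midpoint in either library. Bars are exact Poisson intervals, with control in grey and IL-4 in red. In both libraries first exons were densest (1289 and 1335 per Mb), and internal exons (176 and 225) lay above first introns (112 and 135) and later introns (61.7 and 74.1).

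The segments were longer after IL-4 at every exon position. Control exon transcripts had a median length of 235 bp, with quartiles of 186 and 341 bp. Those of the IL-4 library had a median of 328 bp (95% interval of the median 324 to 333 bp) with quartiles of 235 and 449 bp, 1.40 times as long. The same ratio was 1.37 over all called transcripts and 1.42 for intron transcripts without repeats, so exon transcripts lay between both. In first exons the control and IL-4 medians were 271 and 325 bp, in internal exons 235 and 324 bp, in last exons 235 and 356 bp, and in single exons 297 and 405 bp. A single length was very common. Of the exon transcripts, 319 in control (9.06%, 8.16 to 10.1%) and 229 after IL-4 (5.35%, 4.71 to 6.06%) were exactly 235 bp long, and over all called transcripts the shares were 8.25% and 5.52%. Of these 319 and 229 segments, 210 and 182 had a score of 0.2 or less. Lengths of exon transcripts ran from 37 to 1764 bp in the control library and from 36 to 3818 bp in the IL-4 library.

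The longer segments ran over exon borders more often. Among members on the gene's strand with a gene model, 34.0% of those in internal exons spanned the whole exon in control (32.0 to 36.1%, n = 1972) and 48.1% did after IL-4 (46.1 to 50.03%, n = 2535). Segments that lay wholly inside an internal exon made up 30.7% in control and 20.2% after IL-4. Last exons are long, with a median of 2050 bp in control, and 70.5% of the members there lay wholly inside the exon in control and 61.8% after IL-4.

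Few exon transcripts ran against their gene. Of the members whose host gene has a known strand, 177 of 3478 in control (5.09%, 4.41 to 5.87%) and 204 of 4251 after IL-4 (4.80%) were antisense. The share was 11.4% and 9.42% in last exons, against 4.18% and 3.65% in internal exons and 4% and 4.77% in first exons. In single exons it was 10.3% (7 of 68) and 16.9% (14 of 83), with wide intervals of 5.08 to 19.8% and 10.3 to 26.3%. The intervals of last and internal exons did not overlap in either library.

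The score, the only measurement per segment in the lists, was low in most exon transcripts. It is given to 1 decimal, and what it counts and whether it was scaled to library size are not given in the sources used here. It ranged from 0.1 to 11 in control and from 0 to 10.6 after IL-4. Control exon transcripts had a median score of 0.3 and IL-4 exon transcripts one of 0.2, and 49.0% and 66.7% of them had a score of 0.2 or less. Scores of 1 or more were found in 144 exon transcripts in control (4.09%) and 91 after IL-4 (2.13%), against 7.33% and 3.85% of all called transcripts. First exons had a median of 0.3 in both libraries, and internal and last exons had 0.2 in both.

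The highest scores of all lay in a few exons. In control they were found in Zeb2, a zinc finger repressor needed for tissue macrophage identity (exon 10 of 10, score 11), Vmp1, an autophagy membrane protein (exon 11 of 12, 4.9), Psap (exon 11 of 14, 4.5), Clta (exon 1 of 5, 3.9) and Apoe, the lipid carrier apolipoprotein E (exon 4 of 4, 3.7). After IL-4 high scores were found in Vmp1 exon 11 (10.6), exon 1 of 6 of Nabp1, a single-stranded DNA binding protein (4.5), Clta exon 1 (3.8) and Zeb2 exon 10 (3.7). Vmp1, Clta and Zeb2 were thus among the leading 5 of both libraries.

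Vmp1 exon 11 scored 4.9 in control and 10.6 with IL-4, a log2 ratio of 1.44 after centring on the median of all matched pairs. Its segment lies nearest the promoter annotated for Mir21, the gene of a microRNA whose primary transcript overlaps the 3′ end of Vmp1, so polymerases on either transcript could give this signal and cannot be told apart here. Zeb2 exon 10 scored 11 in control and 3.7 with IL-4, or -1.25 on the centred log2 scale. The other 3 Zeb2 exon pairs lay at -0.16, 0.32 and 0.32, so the lower value was not shared by the exons upstream (exons 6 and 8). The annotated promoter nearest to the Zeb2 exon 10 segment is that of Mir5129, not that of Zeb2. Clta exon 1, Psap exon 11 and Apoe exon 4 stayed within 0.29 of 0 on the centred log2 scale (0.28, -0.22 and 0.20).

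Single-exon genes with high scores included several transcription factors. In control the leading ones were Maf (3.6), Cebpb (1.8) and the AP-1 subunit Junb (1.5), and after IL-4 high scores were found in the linker histone gene H1f3 (1.6) and Cebpb (1.5). Cebpb and Junb formed exon pairs, 1.8 and 1.5 for Cebpb and 1.5 and 1.2 for Junb. By score, their centred log2 ratios lay within 0.06 of 0. The Cebpb segment was shorter in the IL-4 library. With the score multiplied by segment length, the centred log2 ratio of Cebpb was -1.09, past 2-fold lower, so its reading depends on the measure. For Maf (2.3 after IL-4) and H1f3 (1.5 in control) the overlapping segment of the other library carried a promoter label and was no exon transcript. H1f3 belongs to a family of near-identical histone genes, among which reads can be split, so its values are uncertain.

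The next comparison asked which exon transcripts were seen in both libraries. In control 1146 of 3520 (32.6%, 31.03 to 34.1%) overlapped no called transcript of the IL-4 library on the same strand, and after IL-4 1979 of 4282 (46.2%, 44.7 to 47.7%) overlapped none of the control library. First exons had the fewest without a counterpart, 12.6% (10.6 to 14.8%) in control and 24.8% (22.4 to 27.5%) after IL-4. In internal exons the shares were 41.0% (38.9 to 43.1%) and 54.8% (52.9 to 56.7%), and in last exons 38.8% and 49.9%. The intervals of first and internal exons did not overlap in either library. Intron transcripts without repeats had no counterpart in 40.5% (39.8 to 41.3%) and 52.3% (51.6 to 53.0%) of cases, above exon transcripts as a whole but close to internal exons.

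The share without a counterpart was lower at higher scores. Among exon transcripts with a score of at least 0.3, 15.7% in control (14.1 to 17.5%) and 17.3% after IL-4 (15.4 to 19.3%) had no counterpart, against 24.5% and 21.9% for introns without repeats at the same minimum. With a score of 1 or more, 0.694% of control members (1 of 144) and 4.40% of IL-4 members had none. By exon number, the share without a counterpart in control was 13.1% in exon 1, 32.7% in exon 2, and between 37.6% and 47.9% from exon 3 on. After IL-4 it was 25.6%, 45.8% and between 53.1% and 58.5% in the same bins.

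**Figure D3:**
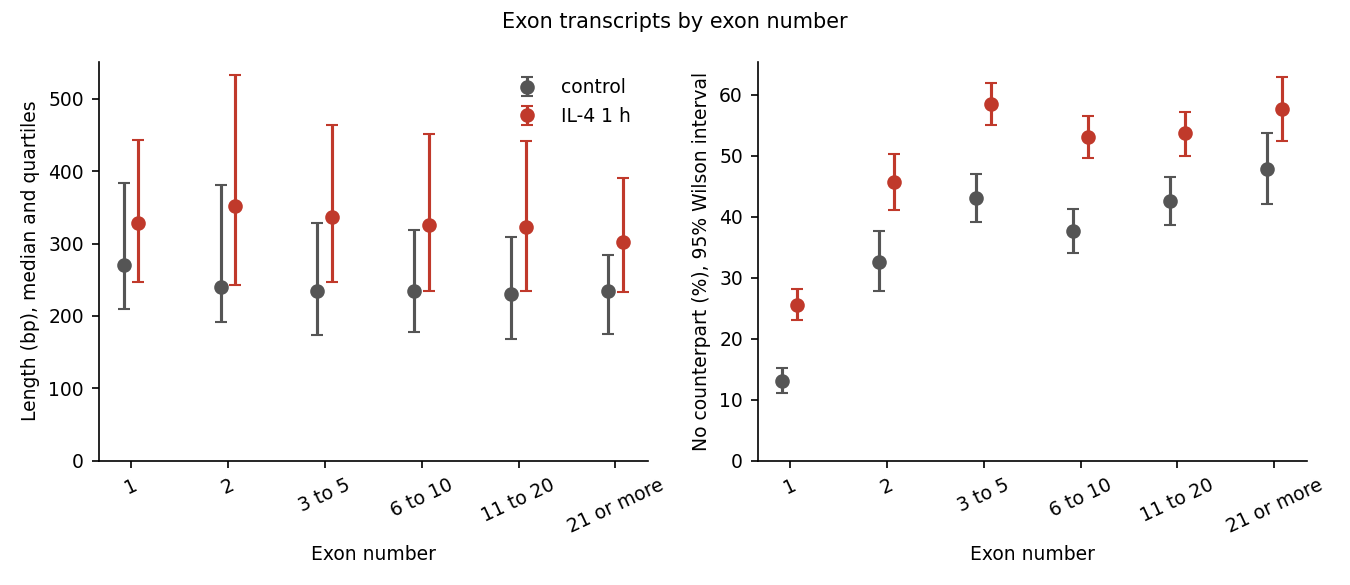
Left, length of exon transcripts (bp, median with quartiles) by exon number, control in grey and IL-4 in red. Right, share (%) with no counterpart in the other library, with 95% Wilson intervals. IL-4 medians lay above control medians in all 6 bins (328.5 against 271 bp in exon 1), and the share without a counterpart was lowest in exon 1 (13.1% and 25.6%).

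To compare scores, transcripts were paired when each was the other's largest overlap on the same strand. This gave 26395 pairs of any class, whose median log2 ratio of IL-4 over control score was -0.32 and was set to 0. Both rows were exon transcripts in 1561 pairs, and their median lay at 0 as well (quartiles -0.68 and 0.32). A further 748 control and 711 IL-4 exon transcripts had a partner of another class, most often an intron row (73.4% and 63.4% of these partners). A pair counted as higher or lower when its centred ratio reached 2-fold. By this rule 155 exon pairs were higher after IL-4 (9.93%, where all pairs gave 10.3%) and 158 were lower (10.1%, where all pairs gave 11.5%), so the shares of exon pairs were near those of all pairs. The balance of both numbers rests on the centring, since without it 131 were higher and 418 lower. Before centring, exon pairs had a median of -0.32, the same as all pairs. The shares of all pairs past 2-fold without centring are not given. When the 2-fold difference had to hold over the whole range that rounding to 1 decimal allows, 49 exon pairs were higher and 33 lower, with 3.86% and 3.21% of all pairs as background. Among the 651 exon pairs with a score of at least 0.3 in both libraries, 47 were higher (7.22%, where all such pairs gave 7.44%) and 34 lower (5.22%, against 6.11%). Pairs in introns without repeats (n = 7510) were higher in 10.9% and lower in 12% of cases.

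The ratio differed with exon position. Pairs in first exons of genes with several exons (n = 504) had a median centred log2 ratio of 0.32. Of these, 58 were higher (11.5%) and 26 lower (5.16%). Pairs in internal exons (n = 824) had a median of -0.26, with 71 higher (8.62%) and 106 lower (12.9%). Last exons (n = 181) gave a median of -0.09, with 19 higher (10.5%) and 20 lower (11.05%). Of all pairs, 10.3% were higher and 11.5% lower. The share furthest from these was that of lower pairs in first exons, and the others lay nearer to them. Pairs in first introns (n = 3598) had a median of 0.06, and pairs in later introns (n = 3894) one of -0.09. Over all genes, the median of exon 1 (n = 552) lay 0.58 above that of exons 2 and later (n = 1009). The means were 0.15 and -0.08, and the upper quartile was 0.32 in both. Scores move in steps of 0.1, so medians of their ratios move in steps too. The value 0.32 is that of equal printed scores, and -0.26 is that of 0.3 in control and 0.2 after IL-4. The length of the segments differed between the libraries as well. On score times length, which would measure the whole segment if the score were a density per base, the medians were -0.06 in exon 1 and -0.09 in exons 2 and later, and the difference was 0.03. With a score of at least 0.3 in both libraries it was 0.32 by score and -0.072 by score times length, so its direction depends on the measure.

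**Figure D4:**
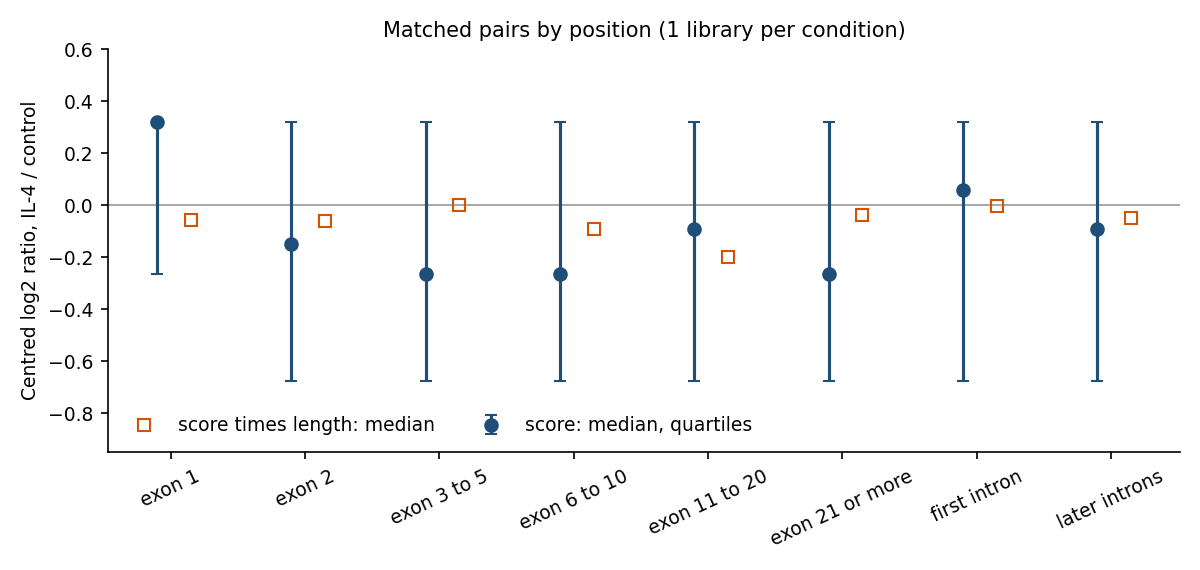
Centred log2 ratio of IL-4 over control for matched pairs by exon number, with first and later introns at the right. Blue points and bars are the median and quartiles of the score ratio, and open orange squares are the median ratio of score times length. By score exon 1 lay at 0.32 and the later exons between -0.26 and -0.09, whereas by score times length all 6 bins lay between -0.20 and 0.00.

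Score in control also moved with the ratio. Pairs in exons 2 and later with a control score of 0.1 (n = 83) had a median of 1.32 and those of 1 or more (n = 58) one of -0.56, and over all pairs the same bins gave 1.32 and -0.39. Exon 1 pairs of 1 or more (n = 40) lay at 0.03. A pair with a control score of 0.1 cannot be much lower, because the lists stop at about this score.

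Among exon pairs that reached the median exon score in at least 1 library, the largest increases after IL-4 were found in Dab2, a clathrin adaptor for endocytosis, and in Mrc1, the mannose receptor of alternatively activated macrophages. Dab2 exon 10 of 13 scored 0.2 in control and 1.5 with IL-4, which is 3.23 on the centred log2 scale (2.86 to 3.69 over the range that rounding allows). Mrc1 exon 8 of 30 scored 0.1 and 0.7, a ratio of 3.13 (2.44 to 4.23). These are the exons printed above with 192 and 158 shared coding bases. Over all pairs, those with a control score of 0.1 (n = 2053) had a median of 1.32 and those of 0.2 (n = 6454) one of 0.32, so ratios from such low control scores start above 0. The 6 increases and 6 decreases named here and next were chosen by their ratio. Each reached the median exon score only in the library where it was higher, so their values are a description.

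The next 3 had the same scores, 0.1 in control and 0.4 after IL-4, for a ratio of 2.32 (1.54 to 3.49). They were exon 1 of 18 of Ralgds, which activates the small GTPase Ral, exon 18 of 18 of Rbbp6, a ubiquitin ligase that binds RB and p53, and exon 2 of 2 of Slfn2, a Schlafen family gene whose relatives are similar in sequence. Zfp609, a zinc finger gene, scored 0.2 and 0.7 in exon 2 of 10 (2.13, range 1.70 to 2.64). These 6 genes lay in first, internal and last exons alike.

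The largest decreases were found in Stab1 and Rnf20. Stab1 exon 23 of 69, in the gene of the scavenger receptor stabilin-1, scored 0.8 in control and 0.1 with IL-4, which is -2.68 on the centred log2 scale (range -3.77 to -2.00). Exon 13 of 20 of Rnf20, a ligase that attaches ubiquitin to histone H2B, scored 0.7 and 0.1 (-2.49, range -3.58 to -1.79). Over all pairs, those with a control score of 0.5 to 0.9 (n = 6521) had a median of -0.26, so ratios from such scores start below 0.

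The next exons, tied at the end of the 6 named, scored 0.5 in control and 0.1 after IL-4, with a ratio of -2.00 (range -3.14 to -1.26). They were exon 12 of 27 of Inpp5d, the lipid phosphatase SHIP1, exon 5 of 5 of Mdfic, a regulator of transcription factors, exon 15 of 15 of Phf3, a PHD finger protein that binds RNA polymerase II, and exon 7 of 15 of Slc6a6, the taurine transporter. Exon 1 of 25 of Smc5, a subunit of a chromosome maintenance complex, had the same scores and ratio and came 7th only by the order of symbols, so it was not among the 6. In Phf3 the control segment was 89 bp long and the IL-4 segment 290 bp, and on score times length its ratio was -0.71. For the other 11 named exons the ratio stayed past 2-fold in the same direction on that measure. In all, 49 higher pairs came from 46 genes and 33 lower pairs from 29 genes.

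Exons of one gene are not independent, since they share the polymerases of that gene. Of the 76 host genes with 3 or more exon pairs, 12 had all pairs above 0 on the centred scale and 17 had all at or below 0, while the others had pairs on both sides. At least 2 pairs were higher in 5 of the 76 and at least 2 were lower in 7. Pairs at exactly 0, the median of all pairs, were counted on the lower side only. No such counts by gene are given for pairs of other classes, so whether exons of a gene moved together was not tested. Of the genes below, Dab2 was chosen for its ratio and Abca1 came from the inflammatory list. The others were chosen for their many exon transcripts, and Mrc1 and Stab1 were also among those named for their ratio. Mrc1 had 4 exon transcripts in control and 12 after IL-4, and all 3 pairs were higher, exon 7 with 0.2 and 0.8, exon 8 with 0.1 and 0.7, and exon 26 with 0.3 and 1. The control segment in exon 12 (0.7) overlapped an IL-4 segment of another class. The exons seen only after IL-4 included exon 14 (0.9), exon 24 (0.7) and exon 30 (0.9). The introns went with the exons, since called transcripts on the gene's strand numbered 21 in control and 97 after IL-4. Dab2 had 3 exon transcripts in control, with scores of 0.5, 0.2 and 0.2, and 4 after IL-4, with scores of 0.8, 0.5, 1.5 and 0.3. Called transcripts on its strand numbered 24 and 54.

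Stab1 went the other way, with no change in the number of exon transcripts. It had 11 exon transcripts in each library, with scores from 0.6 to 1.8 in control and from 0.1 to 0.6 after IL-4, so the groups met only at 0.6. All 7 pairs lay below 0 on the centred scale, with a median of -1.42, and 5 were lower by 2-fold (11.5% of all pairs were). Over all pairs, the median was -0.26 at control scores of 0.5 to 0.9 and -0.39 at control scores of 1 or more. Exon 13 scored 1.3 and 0.2, and exon 25 scored 1 and 0.3. Called transcripts of any class on the strand of Stab1 numbered 34 in control and 25 after IL-4.

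Lrp1 and Abca1, both genes of lipid handling, had nearly all of their exon transcripts in control. Lrp1, a large endocytic receptor that takes up Apoe-containing particles, had 17 exon transcripts in control, spread from exon 2 to exon 87 of 89, and 1 after IL-4. The latter, in exon 22, scored 1.2 in control and 0.3 after IL-4 (-1.68, range -2.00 to -1.39). Abca1, the cholesterol efflux pump, had 8 in control (exons 7 to 45 of 50, scores 0.1 to 0.3) and 0 after IL-4. Called transcripts of any class on the gene's strand numbered 44 and 3 in Lrp1 and 45 and 7 in Abca1. An absent segment says only that none was called there, since the depth of the libraries is unknown.

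Other genes rich in exon transcripts showed smaller differences. Ahnak, a giant scaffold protein whose last exon is very long, had 15 in control and 13 after IL-4, all in exon 5 of 5, and 1 of 10 pairs was higher. Kmt2d, a histone H3 methyltransferase of enhancers, had 12 and 16, with 2 of 9 pairs lower. Plec, the cytoskeletal linker plectin, had 10 and 12, with 1 of 6 pairs higher.

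Tnrc18 had 10 in control and 5 after IL-4, Dync1h1, the heavy chain of cytoplasmic dynein, had 7 and 12, and Spen, a transcriptional corepressor, had 7 and 12, with none of their 14 pairs past 2-fold. Exon transcripts lay in 2310 host genes in control and 2651 after IL-4, of which 1516 were the same genes (65.6% of the control hosts and 57.2% of the IL-4 hosts).

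**Figure D5:**
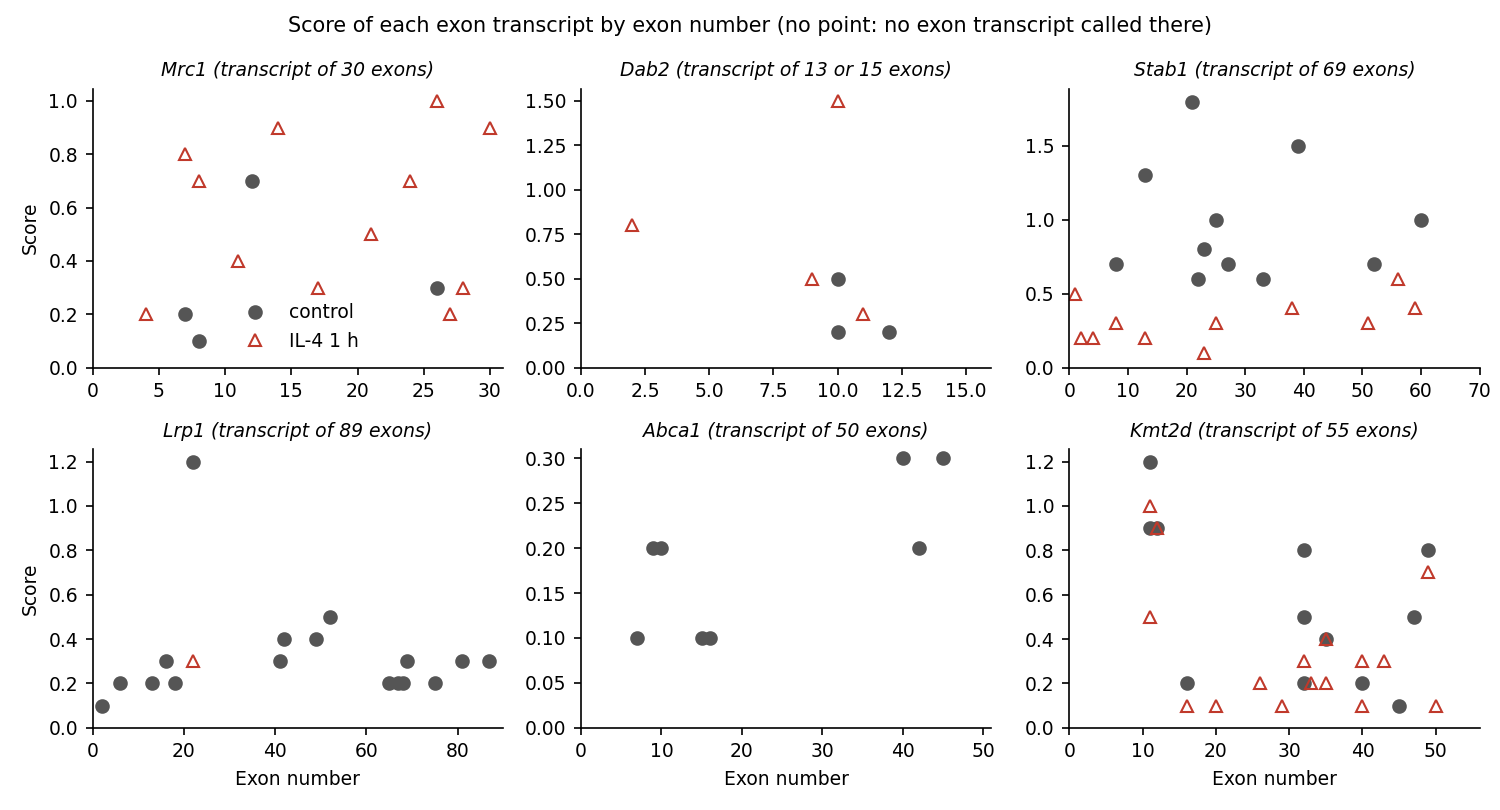
Score of each exon transcript by exon number in 6 host genes, control as filled grey circles and IL-4 as open red triangles, with no point where no exon transcript was called. Mrc1 had 4 and 12 exon transcripts, Stab1 11 and 11 with scores of 0.6 to 1.8 and 0.1 to 0.6, Lrp1 17 and 1, Abca1 8 and 0, and Kmt2d 12 and 16.

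Among 25 genes of the IL-4 response, 3 had an exon transcript in control (Mrc1, Il4ra and Stat6) and 9 had one after IL-4. The 6 genes that had one only after IL-4 were the feedback inhibitors Socs1 and Cish and the transcription factors Egr2, Irf4, Myc and Batf3. Their exon transcripts overlapped no called transcript of the control library, as was the case for 46.2% of all IL-4 exon transcripts, and 42.8% of all IL-4 host genes had no exon transcript in control. Socs1 exon 2 of 2 had the highest score of them (2.5, over 1263 bp), followed by Egr2 with 0.4 in exon 1 and 0.3 in exon 2, Cish with 0.3 in exon 3 of 3, Myc with 0.2 in exon 2 of 3, Batf3 with 0.2 in exon 3 of 3 and Irf4 with 0.1 in exon 2 of 9. In Il4ra, the IL-4 receptor alpha chain, exon 11 of 11 held 1 segment in control (0.2) and 2 after IL-4 (0.9 and 0.4), and the matched pair had a ratio of 1.32. The rounding range of this pair began below 2-fold. Stat6 exon 18 of 22 scored 0.2 in both. Of the 5 pairs of the list 4 were higher and 0 lower, with a median of 2.06, beside 10.3% higher and a median of 0 over all pairs, and 3 of these 4 lay in Mrc1.

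The other lists showed no such shift in the number of genes with an exon transcript. Of 21 immediate early genes, which respond to many stimuli within minutes, 12 had an exon transcript in control and 11 after IL-4, and of their 8 pairs 1 was higher and 1 lower (10.3% and 11.5% of all pairs were). The median was 0.06 by score and -0.58 by score times length. The higher one was an antisense segment in exon 3 of 3 of Maff, with 0.1 in control and 0.2 after IL-4 (1.32), and its rounding range began below 2-fold. The lower one was exon 1 of 3 of the survival factor Mcl1, with 2.8 in control and 1 after IL-4 (-1.16). Junb, Jund and Dusp2 scored 1.5, 1.5 and 1 in control and 1.2, 1.3 and 0.9 after IL-4.

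Of 24 inflammatory genes, 11 had an exon transcript in control and 10 after IL-4 (24 and 14 exon transcripts), and 8 of this difference of 10 came from Abca1. Of their 8 pairs, 1 was higher and 2 were lower (10.3% and 11.5% of all pairs were), with a median of 0.19 by score and -0.67 by score times length, so the direction turned with the measure. The lower ones were exon 5 of 10 of Nlrp3, the inflammasome sensor (0.4 and 0.1, -1.68), and exon 2 of 2 of Cd14, the lipopolysaccharide co-receptor (0.4 and 0.1, -1.68), and the higher one was exon 18 of 25 of Nfkb1 (0.1 and 0.3, 1.91). Nlrp3 exons 2 and 4 scored 0.4 and 0.2 in control and 0.3 and 0.2 after IL-4. For Nlrp3 exon 5 and Cd14 the rounding range began below 2-fold (-0.90 at its nearest).

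Of 25 genes that are highly expressed in macrophages or in all cells, exon transcripts were found for 16 in control and 18 after IL-4. Among their 31 pairs 2 were higher and 2 lower, beside 10.3% and 11.5% of all pairs, and the median was -0.22 by score and 0.19 by score times length, so its sign turned with the measure. The higher pairs lay in Ahnak and Plec and the lower ones in Lrp1 and Flna. For Plec (0.2 in control and 0.4 after IL-4) and Flna (0.3 and 0.1) the rounding range began below 2-fold.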

How the data were processed

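GRO-seq was performed on 1 control and 1 IL-4-treated BMDM library. Per the submitters' processing notes, BWA 0.7.10, SAMtools 0.1.19 and HOMER 4.2 were used with mm10; the authors called transcripts in each library separately and annotated them. The only measurement was the score that the authors deposited per transcript, rounded to 1 decimal. Its scaling is not given in the sources used here, so depth is unknown.

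Exon number and total were read from the annotation text, and the host gene from its RefSeq accession (a gene model of GENCODE M21 was found for 3478 of 3520 and 4251 of 4282 members). The gene named in the lists is that of the nearest promoter, which differed from the host in 30.4% and 30.1% of members and was not used for hosts. Transcripts were paired when each was the other's largest same-strand overlap (minimum 1 bp), and 3 pairs with a score of 0 were left out. Ratios were centred on all pairs, and calls needed 2-fold. Because there was 1 library per condition, values carry Wilson, Poisson or order-statistic intervals of 95% for counting only. Neighbouring segments are not independent. Pairing and calls were also run on simulated data with higher scores, equal segment lengths in both libraries and a counterpart for every segment. That run cannot tell how well either works at the low scores and unequal lengths found here. The alternatives tried were score minima, other overlaps, equal numbers of transcripts, no centring and score times length. Python 3.11.15, pandas 2.3.3, numpy 2.4.6 and scipy 1.17.1 were used.

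Named genes were the 6 largest increases and 6 largest decreases among exon pairs at or above the median exon score in at least 1 library and 2-fold apart over the whole rounding range, 1 per gene, the 5 highest scores and 5 genes with most exon transcripts per library, the 3 highest single-exon transcripts, and members of 4 gene lists. A result that the rule selects is not reported here. Abca1 was taken from the inflammatory list. The members and lists were chosen with earlier results of these data known.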

Additional observations from a re-analysis of the deposited data

How the results depend on the processing

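With 1 library per condition and unknown depth, none of these values has a replicate check, and an absent exon transcript may be one that was not called. No paired analysis was possible because each group has 1 library and no test was made. Of the alternatives to the main shares, medians and counts, 21 values stayed within their counting interval or 1.5 times the count and 29 did not. Keeping scores of at least 0.3, or equal numbers of the highest scoring transcripts, moved the exon share to 7.63% and 7.69% in control and to 7.69% and 7.90% after IL-4. It moved the first-exon share to 34.5% and 35% in control and 41.7% and 37.1% after IL-4, and the last-exon share to 9.91% and 9.94%, and 8.21% and 9.20%. Keeping scores of at least 0.3, or only matched members, gave median lengths of 241 and 243 bp in control and 358 and 340 bp after IL-4, and matched IL-4 members had a median score of 0.3. The share without a counterpart was 37.5% and 61.9% when 50% of the transcript's length had to be covered, and 15.7% and 17.3% at scores of at least 0.3. Of 651 exon pairs with scores of at least 0.3 in both libraries, 47 were higher and 34 lower (7.44% and 6.11% of all such pairs were). Over the whole rounding range 49 and 33 of 1561 were (3.86% and 3.21% of all pairs were). By score times length 239 of 1561 were higher and 244 lower, and without centring 131 and 418. Shares over all pairs are not given for these alternatives. With an overlap of 50% of both transcripts, an alternative chosen after seeing the data, 114 of 1191 were higher and 105 lower, again without the shares over all pairs. The difference between exon 1 and later exons, also examined after seeing the data, reversed to -0.072 by score times length at scores of at least 0.3. Of the 12 named exons, the ratios of Dab2 (4.41) and Phf3 (-0.71) moved by more than their rounding range on score times length. The causes were not tested.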

Other observations

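Outside the lists and the named genes, some hosts differed mainly in the number of exons with an exon transcript. These were picked after their values were seen, as the largest differences in number. Secisbp2l, a relative of the selenocysteine insertion protein Secisbp2, had 0 exon transcripts in control and 7 after IL-4 (scores 0.2 to 0.3), and Htt, the huntingtin gene, had 0 and 6. Kif13b, a kinesin motor, had 1 and 9, Lyst, a regulator of lysosome size, had 2 and 10, Dock10, a guanine nucleotide exchange factor, had 1 and 8, and Myo5a, an unconventional myosin, had 4 and 11. In the other direction the acetyltransferase Crebbp had 5 and 1, the adenylate cyclase Adcy7 had 5 and 1, and Mast4 had 4 and 0, all 4 of them antisense to the gene. Slc9a9, a sodium and proton exchanger, also had 5 and 1, but its only pair was higher after IL-4 (centred log2 ratio 1.32). The highest IL-4 scores were 0.2 in Kif13b and Htt, 0.3 in Secisbp2l, 0.4 in Lyst, 0.5 in Dock10, and 0.6 in Myo5a and Slc9a9, all below 1.

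Among hosts with several called pairs, also picked after their values were seen, Ski, a corepressor of SMAD signalling, had 3 of 3 pairs higher (10.3% of all pairs were), and Jmjd1c, a JmjC domain protein, had 2 of 2 higher. Zfp36l2, which promotes mRNA decay, had 2 of 2 lower, with a highest score of 2 in control and 0.6 after IL-4, and Fyb, a haematopoietic adaptor protein, had 2 of 5 lower and 0 higher, where 11.5% of all pairs were lower. Of the 76 hosts with 3 or more exon pairs, 5 had at least 2 higher and 7 had at least 2 lower, counts that have no background by gene beside them.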
